A study of Mus musculus with 8 samples.

Results

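The odorant receptor genes numbered from Olfr161 to Olfr214, together with Olfr15, were followed in the olfactory mucosa of mice that lost Lhx2 in part of their olfactory sensory neurons (OSNs). The genes were taken by number: every Olfr symbol made of digits only within this number series, measured by a transcript cluster to which the array annotation gave exactly 1 gene symbol. This gave 37 genes out of 19928 tested and out of 1015 digit-only Olfr genes. Of the 55 numbers that could be members, 18 were not measured alone. Olfr169, Olfr194, Olfr205, Olfr208 and Olfr209 appeared only in clusters that named several genes, 8 numbers appeared in RefSeq only as pseudogene symbols, and no cluster carried the other 5 names. In the RefSeq gene table (assembly GRCm38.p6) 33 of the 37 genes lie on chromosome 16, whereas Olfr211, Olfr212, Olfr213 and Olfr214 lie on chromosome 6, so the number series crosses from one chromosome to another. Olfr192 and Olfr197 are listed there as transcribed pseudogenes, and 1 further Olfr gene of chromosome 16, Olfr19, has a number outside the series.

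The mice were P3 neonates of a mixed 129 x C57BL/6J strain, and each array held total RNA from the olfactory mucosa of 1 mouse. The 4 conditional knockout (cKO) mice were 123Cre:Lhx2 fl/fl. The 4 littermate controls comprised 2 Lhx2 fl/+ mice (controls 1 and 2) and 2 123Cre:Lhx2 fl/+ mice (controls 3 and 4), so every mouse carried at least 1 floxed Lhx2 allele and no wild type was measured. The 123Cre transgene acts from the immature OSN stage onwards and recombines the floxed first exons of Lhx2 in only a fraction of OSNs, as the study describes. Sample titles begin with a letter of unstated meaning, which is B for cKO 2, control 1 and control 2 and A for the other 5 arrays. Among the controls the letter and the genotype cannot be told apart. Values are log2 signals of transcript clusters, which pool the probe sets of all the exons that a gene has. The level of 1 gene cannot be set against that of another as an abundance, because it also depends on the probes.

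Odorant receptors (ORs) are G-protein-coupled receptors of OSNs. Each OSN transcribes 1 allele of a single OR gene, and OR genes sit in clusters in the genome where neighbours are often recent duplicates of one another. Lhx2, a LIM-homeodomain transcription factor, binds homeodomain sites in OR promoters and in the enhancers that serve OR clusters, often beside sites for Ebf factors. The MOR names in use before the Olfr numbers group receptors by similarity of protein sequence.

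Neighbouring Olfr genes of the RefSeq table with no other protein-coding gene between them were taken as 1 run. The 37 genes fell into 5 runs. Olfr15 stood alone between the zinc finger genes Zfp263 and Zfp174, and Olfr161, near it, was the only gene measured of a run of 3. A run between Hira and Lamp3 held 7 of the genes out of its 8 Olfr genes, from Olfr164 to Olfr171, which belong to 5 small families (MOR270, MOR271, MOR272, MOR273 and MOR279). The longest run, between Cldnd1 and Gabrr3, held 24 of the genes out of 32, from Olfr172 to Olfr206, and consists mainly of the families MOR182, MOR183 and MOR184. The last run, on chromosome 6 between Alox5 and Rassf4, held 4 of the genes out of 5, of which 3 are of the family MOR119. Receptors of 1 family are close relatives, and how far their probes read more than 1 of them was not tested.

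Promoter sequences were available as RefSeq windows for 27 of the 37 genes. In 16 of these windows the annotated start was a start codon, so the window lies before the coding sequence and not before a known transcript start. In the other 11 the start is that of a transcript, and the 250 bases before it are shown for 5 genes of the longest run. Olfr173, Olfr181 and Olfr206 are shown because their mRNAs fell, and Olfr172 and Olfr180 because their windows were the most similar to those of Olfr173 and Olfr181. Capitals mark the single homeodomain-type match (TAATTA or TAATGA on either strand) found in these 11 windows.
Olfr172 (chr16:58761241-58761490, minus strand): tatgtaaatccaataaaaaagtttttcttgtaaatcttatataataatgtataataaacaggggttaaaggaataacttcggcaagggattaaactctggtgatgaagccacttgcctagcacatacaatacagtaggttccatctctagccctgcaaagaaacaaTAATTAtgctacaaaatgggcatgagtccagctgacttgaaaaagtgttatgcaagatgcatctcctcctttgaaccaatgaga
Olfr173 (chr16:58797943-58798192, minus strand): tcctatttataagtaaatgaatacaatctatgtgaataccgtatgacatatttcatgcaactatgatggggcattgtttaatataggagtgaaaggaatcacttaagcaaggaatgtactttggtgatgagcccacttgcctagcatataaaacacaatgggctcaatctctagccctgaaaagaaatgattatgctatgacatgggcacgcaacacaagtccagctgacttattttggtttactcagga
Olfr180 (chr16:58918487-58918736, minus strand): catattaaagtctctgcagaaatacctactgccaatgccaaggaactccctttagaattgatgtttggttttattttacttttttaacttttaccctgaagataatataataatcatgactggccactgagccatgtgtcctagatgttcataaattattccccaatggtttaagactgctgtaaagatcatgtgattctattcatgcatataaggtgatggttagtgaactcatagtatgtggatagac
Olfr181 (chr16:58928645-58928894, minus strand): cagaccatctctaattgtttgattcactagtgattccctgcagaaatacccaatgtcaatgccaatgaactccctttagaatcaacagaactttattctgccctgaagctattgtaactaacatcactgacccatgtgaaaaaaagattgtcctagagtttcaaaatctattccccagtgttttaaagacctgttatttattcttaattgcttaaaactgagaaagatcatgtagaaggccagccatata
Olfr206 (chr16:59345727-59345976, minus strand): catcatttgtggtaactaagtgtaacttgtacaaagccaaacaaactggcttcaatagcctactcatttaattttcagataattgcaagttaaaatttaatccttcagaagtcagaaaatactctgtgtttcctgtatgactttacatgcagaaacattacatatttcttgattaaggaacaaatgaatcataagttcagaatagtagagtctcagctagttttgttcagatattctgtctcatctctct

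The TAATTA of Olfr172 began 84 bases before the transcript start. It made Olfr172 the only 1 of the 11 windows (9.09%) with TAATTA or TAATGA, against 112 of 248 transcript-start windows of other Olfr genes (45.2%) and 3654 of 30936 of all genes (11.8%). The windows before a start codon held these letters more often: 6 of 16 did (37.5%), against 239 of 669 such windows of other Olfr genes (35.7%). These 6 are Olfr177, Olfr196, Olfr198, Olfr202 and Olfr203, whose mRNAs fell, and Olfr213, which at -1.29 did not pass the test. Among the start-codon windows without these letters, those of Olfr15, Olfr164 and Olfr201 belong to genes that fell. The others, of Olfr161, Olfr165, Olfr170, Olfr178, Olfr190, Olfr191 and Olfr211, belong to genes that did not pass. Whether the letters go with a fall was not tested. Over both kinds of window the letters were in 7 of 27 (25.9%), in 351 of 917 of other Olfr genes (38.3%) and in 4114 of 32851 of all genes (12.5%). CCCNNGGG, an Ebf-type sequence that reads the same on both strands, as TAATTA does, was in 0 of the 27 windows, in 2.84% of the other Olfr windows and in 11.8% of all windows. These letters being absent from a window says nothing about binding of the factors. By global alignment the windows of Olfr172 and Olfr173 were identical at 62.5% of positions, the highest of 55 pairs, and those of Olfr180 and Olfr181 at 55.6%, with a median over all pairs of 49.6%. The estimates of the first pair lay apart, at -0.63 for Olfr172 with a 95% interval from -1.01 to -0.26 and -1.79 for Olfr173 with an interval from -2.23 to -1.34, on the log2 scale of cKO minus control. The genes of the second pair lay close together, at -1.27 (-1.81 to -0.73) for Olfr180 and -1.21 (-1.63 to -0.79) for Olfr181. Signal level differed within both pairs, with control means of 6.65 for Olfr172, 9.81 for Olfr173, 8.76 for Olfr180 and 6.08 for Olfr181. Neither pair was tested gene against gene.

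Lhx2 mRNA itself was measured at 13.14, 13.09, 13.20 and 13.13 in the controls and at 13.03, 12.55, 13.01 and 13.02 in the cKO mice. All cKO arrays were therefore below all control arrays, cKO 2 by the widest margin. The difference of -0.24 (SE 0.11, adjusted p = 0.337) did not pass the test. This cluster also reads the exons that are not floxed, and it is a weak check of the labels. The tissue expressed the markers of OSNs strongly, with Omp, the olfactory marker protein of mature OSNs, at 13.44 and Gap43, a growth-cone protein of immature OSNs, at 12.09 on average in the controls. The array medians lay between 8.82 and 8.89. Because whole mucosa was measured, fewer OSNs choosing a receptor and less receptor mRNA per OSN cannot be told apart by these arrays. The study used in situ hybridization in older mice for this question. It found fewer OSNs labelled for the receptors it tested, Olfr15 among them, and ascribes the lower mRNA to less frequent expression.

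All 37 genes had a lower mean in the cKO mice than in the controls, as did 1009 of all 1015 digit-only Olfr genes. With limma and Benjamini-Hochberg adjustment over all 19928 genes, 12 of them fell at an adjusted p under 0.01 and 0 rose. Of all genes, 2.07% fell by this rule. The share among the 37 (32.4%) is close to that of all digit-only Olfr genes, 306 of 1015 (30.1%), and is no result about these receptors in particular. At an adjusted p under 0.05, 25 of the 37 were lower, beside 679 of the 1015 Olfr genes and 5.17% of all genes. On 33 of the 37 genes every cKO array was below every control array. This pattern was seen in 8.42% of all genes and in 80.3% of digit-only Olfr genes. On chromosomes 10 and 19 it was seen in 92.9% and 88.1% of the Olfr genes. Like the count at 0.01, these are no result about these receptors in particular. The 4 genes whose groups overlapped were Olfr171, Olfr190, Olfr192 and Olfr193. The 95% interval of the difference lay wholly below 0 for all 37.

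The median difference of the 37 genes was -1.14 on the log2 scale, so the median gene kept 45.4% of its control value. The middle part of the genes, from the lower to the upper quartile, ran from -1.29 to -0.79. For the other 978 Olfr genes the median was -0.85, for the 56 Olfr genes of chromosome 10 it was -0.97 with 18 lower, and for the 59 of chromosome 19 it was -0.98 with 25 lower. Across all genes tested the median was 0.026. No test was made of the members against these groups. Below 50% of the control value lay 22 of the 37 genes.

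**Figure D1:**
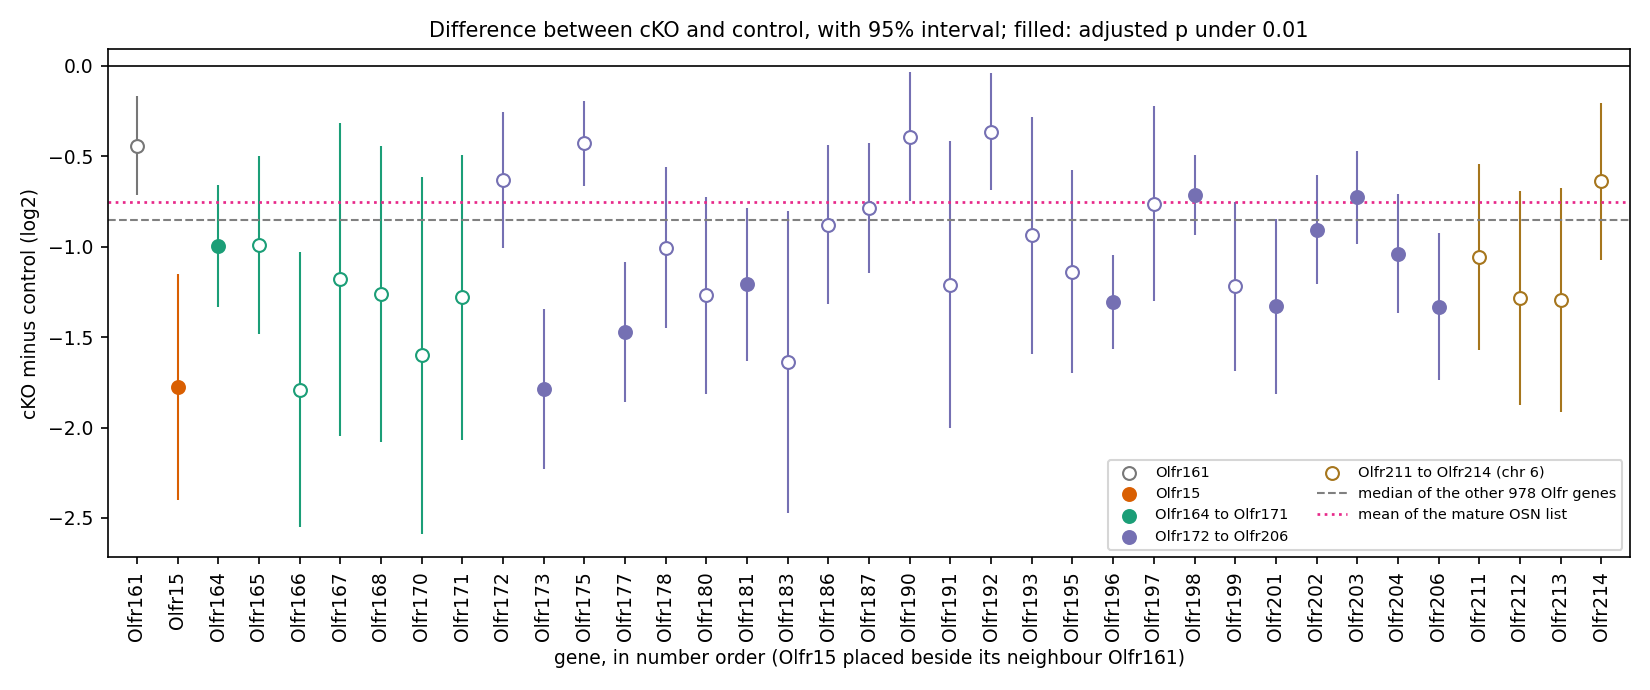
cKO minus control difference (log2, vertical axis) of each of the 37 genes along the number series (horizontal axis), with the 95% interval of limma; filled points passed an adjusted p under 0.01, colours mark the runs, and the lines give 0, the median of the other 978 Olfr genes and the mean of the mature OSN list. All 37 intervals lie below 0, and the differences range from -1.79 for Olfr166 to -0.36 for Olfr192.

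Olfr15, a receptor of the MOR256 family that stands alone among non-receptor genes, had the brightest signal of the 37. Its controls measured 10.84, 11.004, 10.91 and 10.92 and the cKO mice 9.60, 8.16, 9.33 and 9.46. The controls were within 0.16 of each other, whereas cKO 2 lay far below the other cKO mice. The mean went from 10.92 ± 0.067 (SD, n = 4) to 9.14 ± 0.66 (SD, n = 4), a difference of -1.78 (SE 0.28, adjusted p = 0.00772), which left 29.2% of the control value. Olfr161, its neighbour on the chromosome, showed a much smaller difference of -0.44 (SE 0.12, adjusted p = 0.0779) and did not pass the test.

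In the run from Olfr164 to Olfr171 the differences ranged from -1.79 to -0.99 with a median of -1.26. Of its 7 genes 1, Olfr164, passed the threshold (14.3%), beside 30.1% of all digit-only Olfr genes and 2.07% of all genes. Olfr164 measured 7.75, 7.69, 7.44 and 7.89 in the controls and 6.82, 6.30, 6.67 and 6.99 in the cKO mice, and the groups did not overlap. Its difference was -0.997 (SE 0.15, adjusted p = 0.00703).

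Olfr166, the only MOR270 gene, had the lowest difference of all 37. Its controls measured 10.48, 10.45, 10.12 and 10.37 and its cKO mice 8.90, 7.38, 8.93 and 9.04. Again cKO 2 stood far below the others, and the difference of -1.79 (SE 0.33, adjusted p = 0.0166) did not pass, with a cKO SD of 0.79. Without cKO 2 its difference was -1.40 (adjusted p = 0.000127), and with the title letter as a block it passed, at -1.93 (adjusted p = 0.0094). Olfr168, the MOR271 gene, measured 10.42, 10.80, 9.95 and 10.63 in the controls and 9.55, 8.01, 9.68 and 9.51 in the cKO mice. Its groups did not overlap, and the difference of -1.26 (SE 0.36, adjusted p = 0.0955) did not pass. Olfr167, Olfr170 and Olfr171 had differences of -1.18, -1.60 and -1.28 and SEs of 0.38, 0.44 and 0.35, against a median SE of 0.20 over the 37 genes. A cluster that names Olfr169, Olfr170 and Olfr171 together, and so cannot be given to 1 of them, differed by -1.38.

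The longest run, from Olfr172 to Olfr206, held 24 of the 37 genes and 10 of the 12 that fell. Its share of 41.7% stood beside 30.1% of all digit-only Olfr genes, 42.4% on chromosome 19 and 2.07% of all genes. The count is no result about this run in particular. The differences of the run extended from -1.79 for Olfr173 to -0.36 for Olfr192, with a median of -1.02. Genes next to each other in it differed by 0.42 (median) and by up to 1.36 on the log2 scale.

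In the MOR184 family, 3 of 8 genes fell (37.5%), beside 30.1% of all digit-only Olfr genes and 2.07% of all genes. Olfr173 measured 9.68, 10.05, 9.45 and 10.06 in the controls and 8.22, 7.50, 8.28 and 8.11 in the cKO mice. The lowest control lay 1.18 above the highest cKO array, and the difference was -1.79 (SE 0.19, adjusted p = 0.00267), or 29.0% of control. Olfr177 went from 7.32, 7.74, 7.59 and 7.84 to 6.36, 5.68, 6.41 and 6.16, with no overlap. It fell by 1.47 (SE 0.17, adjusted p = 0.0034). Olfr181 was dim, at 5.81, 6.32, 5.76 and 6.42 in the controls and 5.20, 4.70, 4.998 and 4.58 in the cKO mice, where its mean lay below 5.36, the median level of 162 vomeronasal receptor genes taken as a guide to background. Its difference was -1.21 (SE 0.19, adjusted p = 0.00757), and it is 1 of only 3 genes in which cKO 2 was not the lowest cKO array, with Olfr198 and Olfr203. Olfr180 missed the threshold, although its controls measured 8.53, 9.02, 8.61 and 8.89 and its cKO mice 7.73, 6.71, 7.86 and 7.68 without overlap. The difference was -1.27 (SE 0.24, adjusted p = 0.0173), and with the title letter as a block it passed, at -1.38 (adjusted p = 0.00806). At the other end of the family stood Olfr175, at 4.39, 4.38, 4.24 and 4.78 in the controls and 4.02, 3.97, 4.06 and 4.04 in the cKO mice. Both its means were below the background guide, and its difference was -0.43 (SE 0.10, adjusted p = 0.0481).

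In the MOR183 family, beside 30.1% of all digit-only Olfr genes and 2.07% of all genes, 1 of 7 genes (14.3%) fell, Olfr196. Its controls measured 7.21, 7.21, 7.22 and 7.32 and its cKO mice 6.04, 5.55, 6.10 and 6.04. The groups were 1.11 apart and the controls nearly identical, with an SD of 0.053. The difference of -1.31 (SE 0.11, adjusted p = 0.00125) had the smallest adjusted p of the 37 genes, and Olfr196 was the only one that stayed under 0.01 whichever of the 8 arrays was left out. The interval of Olfr196 went from -1.57 to -1.05. Olfr183 had a larger difference of -1.64 (SE 0.37, adjusted p = 0.0358), but its controls spread from 6.54 to 8.21. Olfr190 was the faintest of the family and overlapped between groups, at 5.17, 5.31, 4.95 and 5.67 in the controls and 4.94, 4.68, 5.16 and 4.76 in the cKO mice. Its difference was -0.39 (SE 0.16, adjusted p = 0.272). Olfr191 differed by -1.21 (SE 0.35, adjusted p = 0.0988) and had cKO 2 at 4.74, where the next lowest cKO array was at 6.24.

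The MOR182 family, at the end of the run, had 6 of 7 genes past the threshold (85.7%), with a median difference of -1.04. Of all digit-only Olfr genes 30.1% fell, and of all genes 2.07%. No family was tested against the other Olfr genes. The differences of MOR182 were not the largest. The median control SD of its genes was 0.17, against 0.29 for MOR183 and 0.24 for MOR184. Whether this spread has part in the count was not tested. Within title letter A 3 of its 7 genes fell, beside 2 of 7 in MOR183, 3 of 8 in MOR184 and 1.45% of all genes. Olfr198 measured 7.05, 7.03, 6.99 and 7.02 in the controls and 6.21, 6.56, 6.40 and 6.06 in the cKO mice. It is the gene in which cKO 2 was the highest of the cKO arrays, and it differed by -0.71 (SE 0.10, adjusted p = 0.00512). For Olfr201 the controls were 7.77, 8.05, 7.77 and 8.18 and the cKO mice 6.84, 5.92, 6.87 and 6.83. The groups were 0.90 apart, and the difference was -1.33 (SE 0.21, adjusted p = 0.0086). Olfr202 went from 8.27, 7.89, 7.90 and 8.001 to 7.36, 6.78, 7.03 and 7.25, again without overlap. It fell by 0.91 (SE 0.13, adjusted p = 0.00642).

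Olfr203 was dim throughout, at 4.46, 4.15, 4.55 and 4.75 in the controls and 3.65, 3.79, 3.78 and 3.80 in the cKO mice. Both group means were below the background guide, so its difference of -0.73 (SE 0.11, adjusted p = 0.00772) passed the test on a signal not clearly above background. Olfr204 measured 7.24, 7.62, 7.29 and 7.43 in the controls and 6.60, 5.93, 6.49 and 6.40 in the cKO mice, with a difference of -1.04 (SE 0.15, adjusted p = 0.0057). The last gene of the run, Olfr206, measured 6.94, 7.06, 6.86 and 6.94 in the controls and 6.01, 5.06, 5.85 and 5.56 in the cKO mice. Its control SD was 0.081 and its difference -1.33 (SE 0.18, adjusted p = 0.00488). The 1 MOR182 gene outside the threshold was Olfr199, at 6.81, 7.10, 6.65 and 7.28 in the controls and 6.06, 5.19, 5.71 and 6.01 in the cKO mice. It missed it narrowly, with -1.22 (SE 0.21, adjusted p = 0.0106), and passed with the title letter as a block, at -1.30 (adjusted p = 0.0068). Clusters that name Olfr194 with Olfr203, and Olfr204 with Olfr205 and Olfr206, differed by -1.41 and -1.17. A cluster naming Olfr208 and Olfr209, which RefSeq gives as 1 gene next to Olfr206 on chromosome 16, differed by -0.83.

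**Figure D2:**
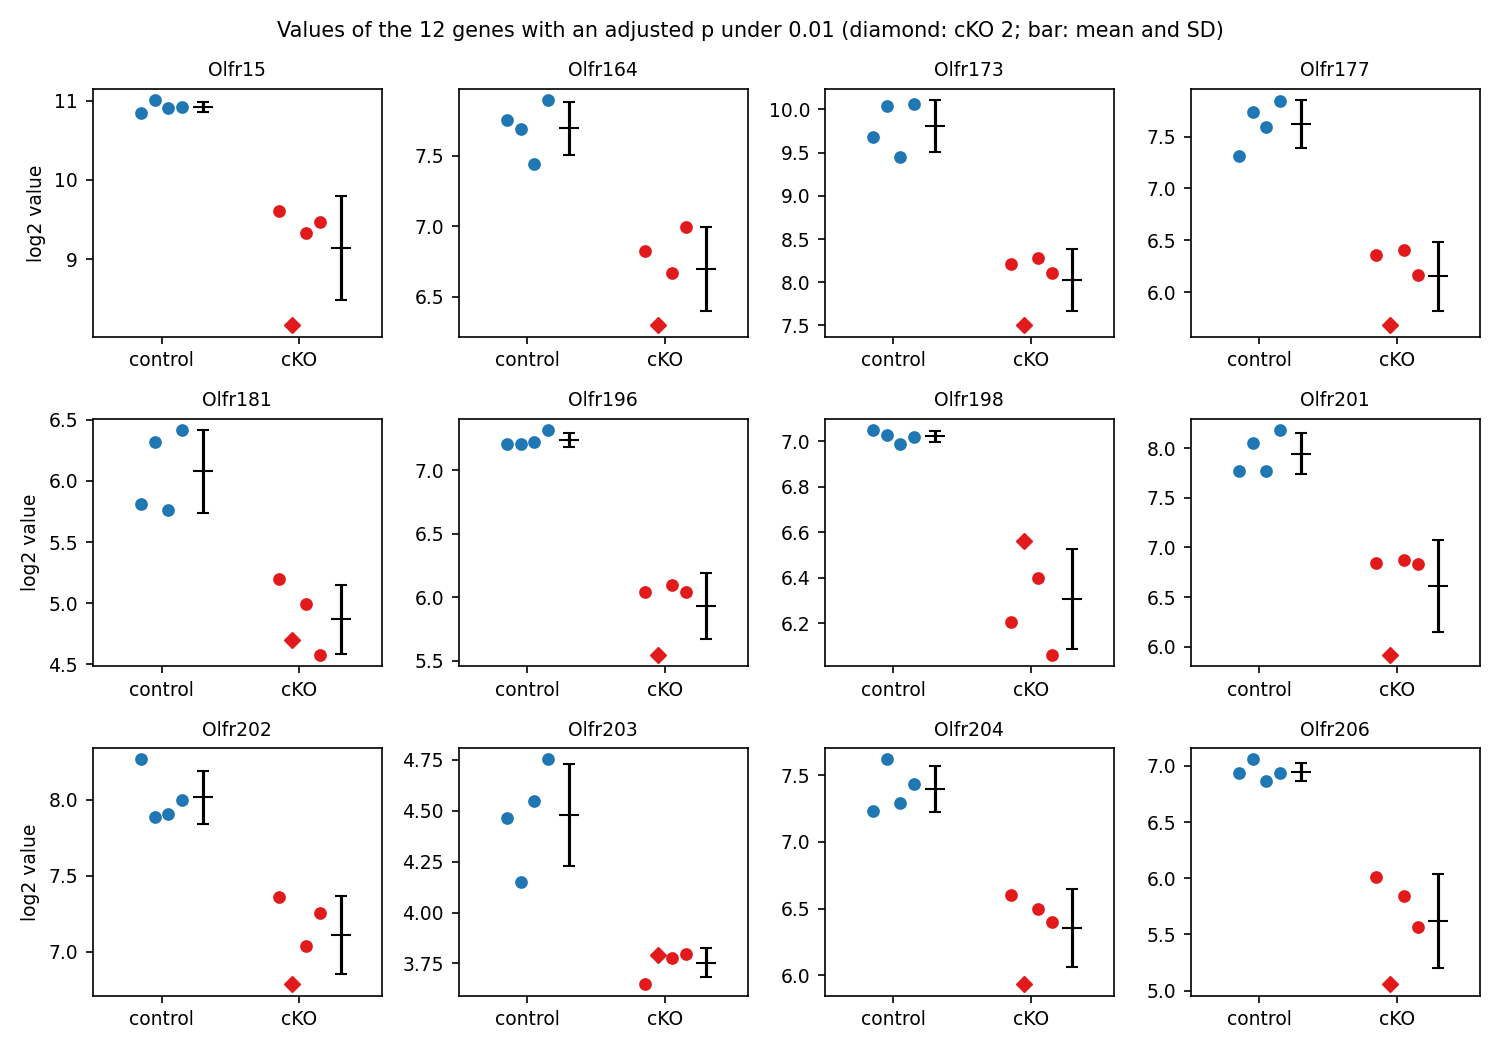
Log2 values (vertical axis, a separate scale in each panel) of the 12 genes with an adjusted p under 0.01 on the 4 control and 4 cKO arrays, with the mean and SD as a bar beside the points and cKO 2 as a diamond. No cKO point reaches a control point in any of the 12 panels, and cKO 2 is the lowest point of its group except for Olfr181, Olfr198 and Olfr203.

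Both transcribed pseudogenes measured in the longest run had signals well above the background guide. Olfr192 gave the difference nearest to 0 of all 37, with controls of 7.26, 7.47, 7.16 and 7.53 and cKO values of 7.22, 6.67, 7.24 and 6.83. Its groups overlapped, and the difference was -0.36 (SE 0.14, adjusted p = 0.261). Olfr197 differed by -0.76 (SE 0.24, adjusted p = 0.132), with all cKO arrays below the controls. The only MOR113 gene, Olfr193, differed by -0.94 (SE 0.29, adjusted p = 0.129) and overlapped between groups.

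On chromosome 6, 0 of the 4 genes passed the threshold in limma, beside 30.1% of all digit-only Olfr genes and 2.07% of all genes. All 4 had an unadjusted limma p under 0.05, as all 37 genes did. Their groups did not overlap, as in 33 of the 37 genes and 80.3% of all digit-only Olfr genes. By the methods' t-test with the same adjustment, 0 of all 37 genes passed. Olfr211, Olfr212 and Olfr213 differed by -1.06, -1.28 and -1.29, with adjusted p-values from limma of 0.0295, 0.0229 and 0.0277. Olfr214 differed less, at -0.64 (SE 0.19, adjusted p = 0.116).

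Genes with brighter control signals tended to have larger differences. Across the 37 genes the control mean and the difference had a Pearson r of -0.60 and a Spearman rho of -0.50, and across the other 978 Olfr genes rho was -0.38. These are descriptions: the genes share 8 arrays, the control mean enters both quantities, and signal close to background shrinks a log2 difference. In 6 of the 37 genes the cKO mean was below the background guide, and in 3 of them (Olfr175, Olfr190 and Olfr203) so was the control mean.

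**Figure D3:**
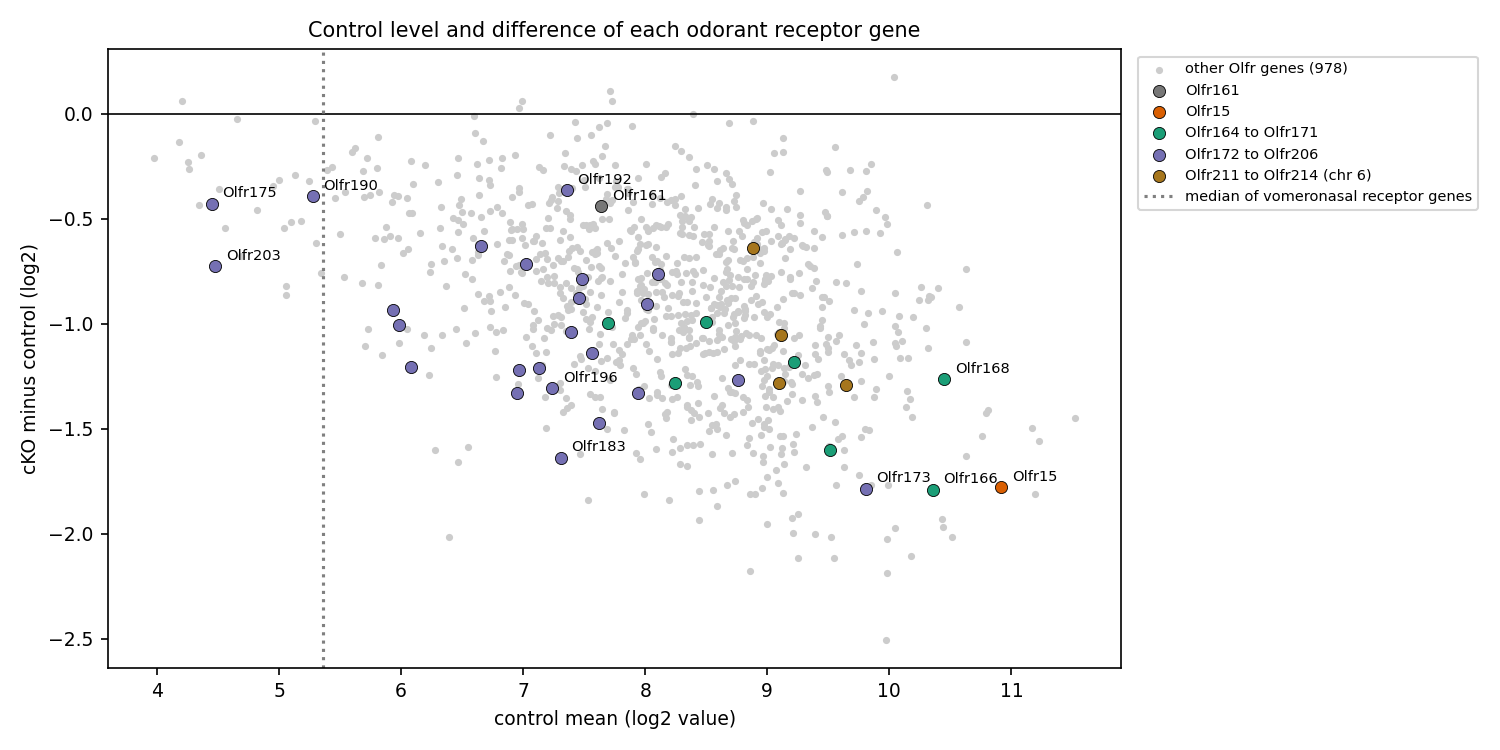
Control mean (log2 value, horizontal axis) and cKO minus control difference (log2, vertical axis) of each of the 37 genes, coloured by run, over the other 978 Olfr genes in grey; the dotted line is the median level of vomeronasal receptor genes (5.36). Olfr15, Olfr166 and Olfr173 lie at the lower right, and Olfr175, Olfr190 and Olfr203 left of the dotted line.

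The mean over the 37 genes was 7.72, 7.99, 7.54 and 7.91 on the control arrays and 6.93, 6.12, 6.95 and 6.83 on the cKO arrays. Of the cKO mice, cKO 2 stood apart: it had the lowest cKO value for 34 of the 37 genes (91.9%), and likewise for 83.2% of the other Olfr genes but for 26.9% of all genes. The median cKO SD of the 37 genes was 0.40 with cKO 2 and 0.13 without it, against a median control SD of 0.23. Without cKO 2 the median difference was -0.86 in place of -1.14, and 20 genes fell in place of 12, beside 3.3% of all genes in that fit: 3 of 7 from Olfr164 to Olfr171, 13 of 24 from Olfr172 to Olfr206, 3 of 4 on chromosome 6, and Olfr15. Leaving out cKO 1, cKO 3 or cKO 4 left 8, 3 and 2 genes past the threshold, beside 2.13%, 0.271% and 0.497% of all genes. Leaving out controls 1, 2, 3 or 4 left 2, 2, 2 and 1, beside 0.151%, 0.396%, 0.422% and 0.286%.

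The runs differed in how far cKO 2 departed. From Olfr164 to Olfr171 the run mean was 9.21, 9.43, 8.69 and 9.23 in the controls and 8.18, 6.84, 8.20 and 8.12 in the cKO mice, so that cKO 2 was 1.28 below the next array. For the longest run the means were 6.92, 7.21, 6.82 and 7.20 in the controls and 6.19, 5.57, 6.24 and 6.07 in the cKO mice. On chromosome 6 they were 9.09, 9.54, 8.87 and 9.23 in the controls and 8.42, 7.39, 8.37 and 8.28 in the cKO mice. The gap from cKO 2 to the next cKO array was 0.50 in the longest run, 0.90 on chromosome 6, 0.55 over the other Olfr genes and 0.59 over the mature OSN list. All cKO means were below all control means in each run.

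**Figure D4:**
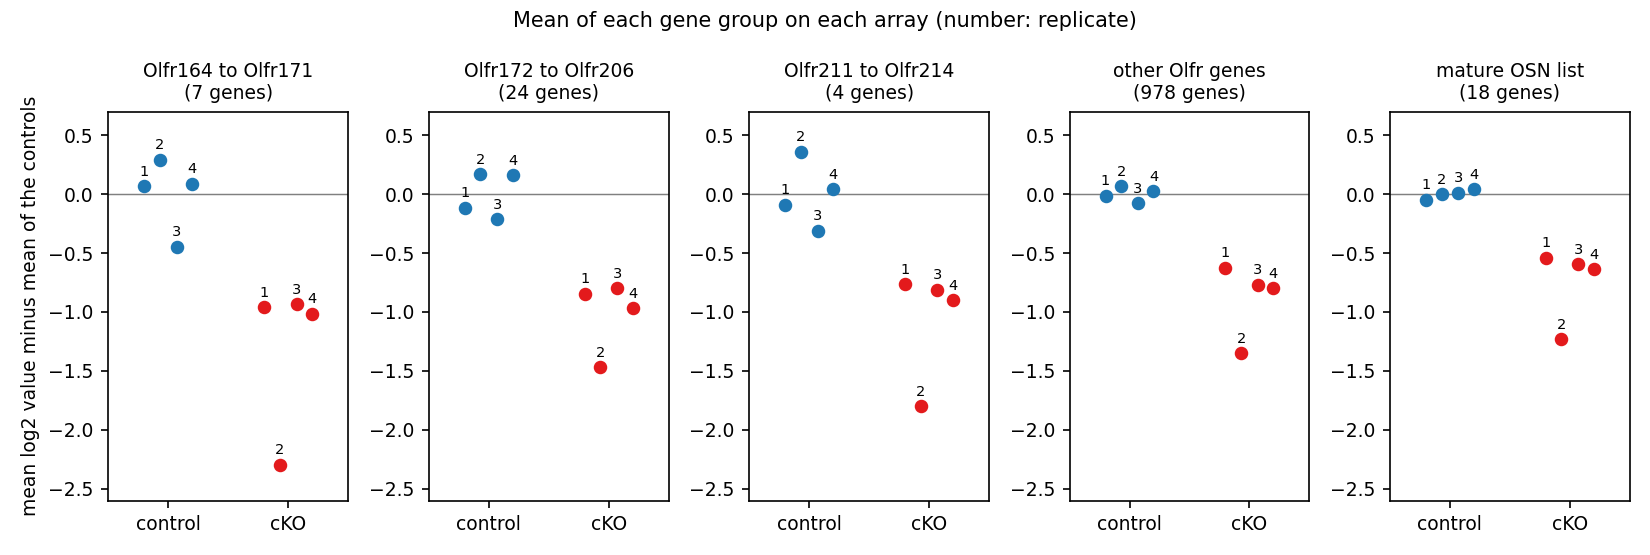
Mean log2 value of each gene group on each array minus the mean of the 4 controls (vertical axis), with replicate numbers beside the points, for 3 runs, the other Olfr genes and the mature OSN list. In every panel the 4 cKO points are below the controls and cKO 2 is the lowest, with the widest gap from Olfr164 to Olfr171.

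The letter of the sample title gave the same contrast, because cKO 2 is the only cKO mouse with letter B. Within letter A (3 cKO mice and 2 controls) the mean of the 37 genes differed by -0.82 and 10 genes fell, 1 of them from Olfr164 to Olfr171, beside 1.45% of all genes. With the letter as a block over all arrays 15 of the 37 fell, beside 3.03% of all genes. Letter B holds cKO 2 and 2 controls, so the difference there of -1.74 restates the low values of that array. The difference between the letters was itself tested in limma as an interaction, which 2 of the 37 genes passed, beside 0.0552% of all genes. For Olfr191 the cKO effect in letter B minus that in letter A was -2.07 (adjusted p = 0.00654), and for Olfr166 it was -1.79 (adjusted p = 0.00898). The letter B side of this test rests on a single cKO mouse, assumed to vary like the other groups, so the letter and the mouse cannot be told apart.

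The controls of these receptors also varied more than those of other ORs. The median control SD was 0.23 for the 37 genes, 0.16 for the other 978 Olfr genes, and 0.16 and 0.15 for those of chromosomes 10 and 19. Control 3 was the lowest control for 28 of the 37 genes (75.7%), against 44.9% of the other Olfr genes, and control 2 the highest for 19 (51.4%), against 35.3%. From Olfr164 to Olfr171 control 3 was the lowest for all 7 genes, and control 2 exceeded it by 0.85 in the median, against 0.32 in the longest run, 0.69 on chromosome 6 and 0.13 over the other Olfr genes. The widest gaps between these arrays were 1.67 for Olfr183, 1.36 for Olfr171, 1.20 for Olfr170 and 1.17 for Olfr193. Olfr15, Olfr196, Olfr198 and Olfr206 had control SDs under 0.1. No test was made of these spreads. Control 2 is Lhx2 fl/+, and controls 3 and 4 are 123Cre:Lhx2 fl/+. Control 4 was the highest control for 13 of the 37 genes. The cause of the spread was not tested. Between the control genotypes 0 of the 37 genes and 0 of all 19928 differed in limma (1 of the 37, Olfr203, at an unadjusted p under 0.05). The median of the 37 was -0.10 for 123Cre:Lhx2 fl/+ minus Lhx2 fl/+. This comparison sets 2 control arrays against 2, so it could detect little, and the title letter goes with the genotype.

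**Figure D5:**
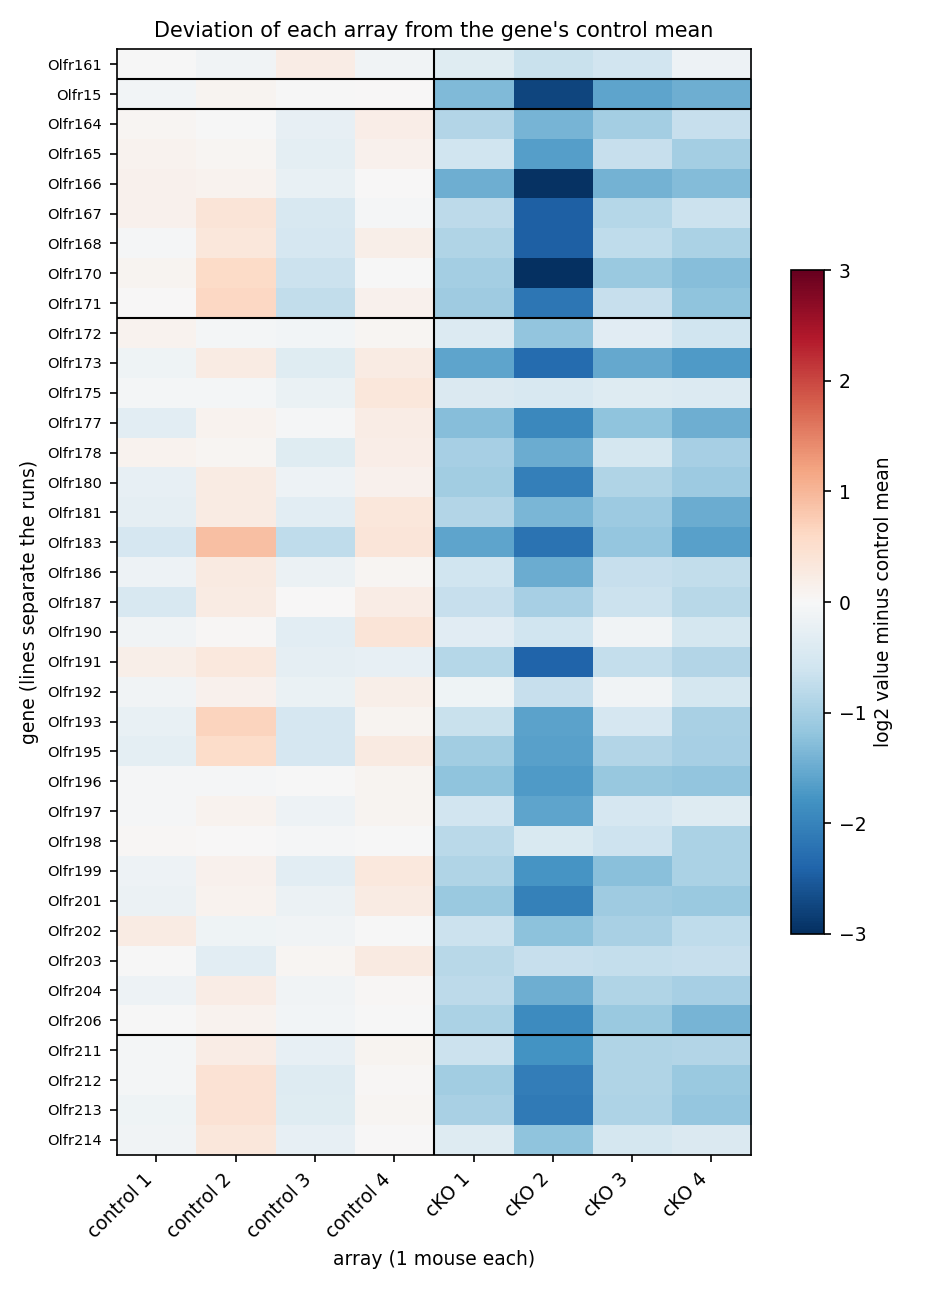
Colour shows, for each of the 37 genes (rows, in number order with lines between runs) on each of the 8 arrays (columns), the log2 value minus the mean of that gene's 4 controls. The cKO columns are blue nearly throughout and darkest for cKO 2, with the lowest values, from -2.98 up to -2.44, in the rows of Olfr170, Olfr166, Olfr15, Olfr167 and Olfr168, while control 2 is red and control 3 blue in rows such as Olfr170, Olfr171, Olfr183, Olfr193 and Olfr195.

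Genes beside the runs differed little between the groups. Up to 3 measured genes that are no Olfr genes were taken on each side of each run, 23 in all, and 0 of them passed the threshold in limma or by the methods' t-test, although 3 had an unadjusted p under 0.05. Their differences lay between -0.26 and 0.17 with a median of 0.017. Rassf4, beside the run of chromosome 6, differed most, by -0.26 (SE 0.052, adjusted p = 0.0219). Next by unadjusted limma p came Lamp3, beside the run of Olfr164 to Olfr171, at -0.20 (adjusted p = 0.262). Mefv, near Olfr161 and Olfr15, followed at 0.17 (adjusted p = 0.293). Hira, which encodes a histone chaperone and borders the run of Olfr164 to Olfr171, differed by 0.068 (adjusted p = 0.487). Gabrr3, a GABA receptor subunit gene that borders the longest run, differed by -0.033 (adjusted p = 0.947), and Zfp263, a zinc finger gene near Olfr15, by 0.024 (adjusted p = 0.872).

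Of 22 regulators of OR expression, 1 fell and 0 rose. Adcy3, the adenylyl cyclase of odorant signalling, fell from 12.12 to 11.26, by 0.86 (SE 0.094, adjusted p = 0.00267). The next smallest p-values, which did not pass, were those of Ebf4, an Ebf transcription factor, at -0.46 (adjusted p = 0.0192), and Rtp1, which carries ORs to the cell surface, at -0.37 (adjusted p = 0.0327). Emx2, another homeodomain factor of OSNs, differed by -0.042 (adjusted p = 0.755), and Ldb1, the adaptor protein that bridges Lhx2-bound elements, by 0.00075 (adjusted p = 0.997).

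Markers of mature OSNs decreased in the same mice. Of 18 such genes 6 fell and 0 rose, with a median of -0.61, and all 18 had every cKO array below every control array. Omp fell by 0.97 (SE 0.14, adjusted p = 0.00605). Adcy3, Rtp1 and Rtp2 are on this list and also on that of the regulators. The smallest p-values of the mature OSN list were those of Adcy3, Pde1c and Cnga4. Pde1c, a phosphodiesterase of OSN cilia, differed by -0.55 (adjusted p = 0.00352). Cnga4, a modulatory subunit of the transduction channel in OSN cilia, differed by -1.60 (adjusted p = 0.00434). The list mean lay between 12.02 and 12.11 on the control arrays and between 10.84 and 11.53 on the cKO arrays, with cKO 2 the lowest. Of 14 immature OSN markers 1 fell, Stmn4, at -0.30 (adjusted p = 0.00447), and the list median was -0.042. An unadjusted limma p under 0.05 was reached by 5 of the 14. These were Stmn4, Dcx (-0.22), Ncam1 (-0.22) and Gap43 (-0.29), which were lower, and Marcksl1, which was higher (0.15). The markers of OSN progenitors (5 measured), dividing cells (3), blood (1), vomeronasal neurons (3), macrophages (4), ensheathing glia (3), horizontal basal cells (4), sustentacular cells (5), ciliated cells of the respiratory lining (3) and microvillous cells (5) had 0 genes past the threshold, whether by limma or by the methods' t-test. Those with an unadjusted p under 0.05 were 3 progenitor, 1 dividing-cell, 2 microvillous and 1 ciliated-cell marker and none of the rest. The means of the 3 dividing-cell markers did not overlap between groups, at 11.75 to 11.83 in the controls and 11.85 to 12.03 in the cKO mice. In the other lists of this group the means overlapped. Adjusted p-values from limma were 0.281 for Mki67, 0.344 for Cdk1 and 0.479 for Top2a, and the list mean was not tested.

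On average the mature OSN markers differed by -0.75 (40.6% lower), which was of the size of many of the receptor differences. This is the mean of 18 well-known markers and no count of OSNs, and the study's own factor, from a much longer list, was smaller. The 95% interval of 23 of the 37 genes included -0.75, the interval of 10 lay below it and that of 4 above it. Once this mean was subtracted from all receptor genes as 1 constant, the median of the 37 genes was -0.39 and 29 stayed below 0. In this fit 0 of the 37 passed the threshold in limma or by the methods' t-test, and 0.12% of all genes fell. An unadjusted limma p under 0.05 was reached by 14 of the 37, beside 382 of all 1015 digit-only Olfr genes. These 14 include Olfr161, Olfr175, Olfr190 and Olfr192, which lay above 0 (0.31, 0.32, 0.36 and 0.39). Olfr166, Olfr173 and Olfr15 then differed by -1.04, -1.03 and -1.03. The size of the subtraction sets these values. With the list median (-0.61) in its place 0 genes passed and the median of the 37 was -0.53, beside 0.0552% of all genes lower. With 0.2 subtracted, 3 passed (Olfr173, Olfr177 and Olfr196), beside 0.527% of all genes, and the median was -0.94.

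Subtracting the list mean array by array gave the same differences as the constant, with smaller SEs for genes whose cKO 2 value was low in step with the mature OSN markers. In this fit 3 of the 37 genes were lower, beside 0.401% of all genes. These were Olfr173 at -1.03 (SE 0.12, adjusted p = 0.00687), Olfr177 at -0.72 (SE 0.094, adjusted p = 0.00794) and Olfr196 at -0.55 (SE 0.051, adjusted p = 0.00291). Olfr15, at -1.03 (SE 0.15, adjusted p = 0.0109), came next to the threshold. Minus the list mean of the same array, the mean of the 37 genes was -4.28 ± 0.20 in the controls and -4.61 ± 0.081 in the cKO mice (SD, n = 4 each), and the groups overlapped, since control 3 (-4.54) was below cKO 3 (-4.52).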

How the data were processed

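Olfactory mucosa of 8 mice was hybridised to Mouse Gene ST arrays of Affymetrix, 1 for each mouse. The authors deposited 1 log2 value per transcript cluster and array for 28312 clusters, made per the submitters' notes with Affymetrix Expression Console. Its version, the background correction, the normalization between arrays and the genome build are not stated in the labels or methods. These steps set the scale, and residual background shrinks the log2 differences of dim genes. Clusters with exactly 1 symbol in the platform annotation (21759) were kept, 1605 with several symbols and 4948 without were left out, and the cluster with the highest mean stood for each of 994 genes that had several, which left 19928 genes. Symbols were matched by Entrez identifier (19846 genes) to RefSeq tables of GRCm38.p6, which gave chromosomes, neighbours, older MOR names and promoter sequences.

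All genes were fitted with limma 3.58.1 in R 4.3.3 (lmFit and eBayes), 4 cKO against 4 control arrays, two-sided, with Benjamini-Hochberg adjustment over all genes and a threshold of adjusted p under 0.01. p-values measure the spread between mice, and the number of arrays limits the precision, with a median SE of 0.20 for the 37 genes. The fit was tested on simulated data. The mean of the 18 mature OSN markers stood in for the longer published list by which the study corrects for OSN number, and was subtracted from Olfr and Taar genes. It exceeds the study's own factor, so the list median and 0.2 were also tried, chosen after seeing the data. Promoter windows were aligned globally (match 1, mismatch -1, gap -2). The members, the gene lists and the rules were chosen with earlier results of these data known. Values of every array are given for genes past the threshold, Olfr15, the 3 nearest to passing, the 3 with the highest control mean, the 3 with the difference nearest to 0 and the 3 lowest. From each gene list at most 3 genes are named, and genes named beyond these were chosen after their values were seen. The alternatives were the methods' t-test, a threshold of 0.05, trended and robust variance priors, quantile normalization, centring on genes that are no chemoreceptor, a filter on dim genes, every cluster, the title letter, array weights, each control genotype alone, each array left out, and the mature OSN subtraction.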

Additional observations from a re-analysis of the deposited data

Results flagged for a closer look

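In 17 of 84 groups of 4 arrays 1 array stood apart by Dixon's criterion, where chance gives about 1 in 20 groups, and 14 of the 17 were cKO 2. The 84 groups share the same 8 arrays and are not independent. As the lowest cKO log2 value, with the next lowest beside it, cKO 2 stood apart for Olfr166 (7.38, next 8.90), Olfr167 (6.77, next 8.37), Olfr168 (8.01, next 9.51), Olfr170 (6.53, next 8.23), Olfr180 (6.71, next 7.68), Olfr186 (5.98, next 6.72), Olfr191 (4.74, next 6.24), Olfr196 (5.55, next 6.04), Olfr197 (6.52, next 7.54) and Olfr201 (5.92, next 6.83). It did so too for the mean of the 37 genes (6.12, next 6.83), for the mean from Olfr164 to Olfr171 (6.84, next 8.12), for the mean of the 4 genes on chromosome 6 (7.39, next 8.28) and for Lhx2 itself (12.55, next 13.01). Elsewhere, control 3 was low for Olfr165 (8.21, next 8.55), control 4 was high for Olfr196 (7.32, next 7.22), and cKO 1 was low for Olfr203 (3.65, next 3.78).

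The cKO effect differed between the title letters for Olfr191 (letter B minus letter A -2.07, limma interaction, adjusted p = 0.00654) and Olfr166 (-1.79, adjusted p = 0.00898). For 34 of the 37 genes this interaction was below 0. The letter B side holds 1 cKO mouse, so letter and mouse cannot be told apart.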

How the results depend on the processing

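No paired analysis was possible because the replicate numbers only follow accession order and the titles share a letter between the groups but no number. The mice came from several litters that each gave cKO and control mice, and the labels do not name the litter of a mouse. With the shared letter as a block the 12 genes passed, and Olfr166, Olfr180 and Olfr199 with them. The count of 12 lower genes rose to 25 at an adjusted p under 0.05 and to 22 within title letter B, which was chosen after seeing the data and rests on the single array cKO 2. It dropped to 3 with dim genes left out, a filter that leaves 15 of the 37 genes in the test, to 0 with either control genotype alone (2 control arrays), to 0 by the methods' t-test, and to 0 and 3 after the mature OSN subtraction as 1 constant and array by array. Leaving out 1 array gave from 1 (without control 4) to 20 (without cKO 2). After the subtraction as 1 constant, the count of 0 became 3 array by array, 3 with 0.2 subtracted, and from 0 to 3 with 1 array left out (3 without cKO 2). The subtraction of the list mean turned 8 differences above 0, that of the list median 4 and that of 0.2 none. With the list mean they were, for both forms, Olfr161 0.31, Olfr172 0.12, Olfr175 0.32, Olfr190 0.36, Olfr192 0.39, Olfr198 0.037, Olfr203 0.025 and Olfr214 0.11. Of the genes beside the runs, 0 passed and 1, Rassf4, did with the title letter as a block. Of the regulators 1 passed, with 2 (Adcy3 and Ebf4) under array weights, 3 (these and Rtp1) with the letter block, 2 within letter A, 0 with either control genotype alone, 0 by the methods' t-test, and from 0 to 2 with 1 array left out. Where no cause is given, the cause was not tested. The run means kept their direction in every setting tried, and apart from the subtraction no setting tried turned the sign of any of the 37 differences. The other settings left the count of lower genes between 10 and 15.

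Over all genes, the 412 lower and 12 higher became 0 and 1 by the methods' t-test, 24 and 16 or 80 and 6 after the subtraction, 0 and 0 with either control genotype alone, 603 and 14 with the letter block, 629 and 6 within letter B, 657 and 19 without cKO 2, and 30 to 99 lower without any 1 of cKO 3, cKO 4 and the controls. The number of arrays and signals near background (6 cKO means below 5.36) limit what could be detected.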
